A study of Mus musculus with 31 samples.

Results

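The genes described here make microRNAs or carry out silencing by them, and were followed in mouse embryonic stem cells from which the microRNA-cutting enzyme Dicer1 had been removed. The 10 genes were set by name: the Argonautes Ago1, Ago2 and Ago3, the TNRC6 scaffolds Tnrc6a, Tnrc6b and Tnrc6c, and the processing genes Drosha, Dgcr8, Xpo5 and Tarbp2. They are 10 of 57193 genes and unassigned entries with exonic signal in the table of metabolically labelled RNA. The question behind their choice is whether the silencing machinery itself shifts when microRNAs are lost.

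Metabolic labelling used 4-thiouridine (4sU), a uridine analogue that enters RNA as it is made, so that RNA made during the pulse can be separated from older RNA. The cells were the DTCM23/49 XY line with a conditional Dicer1 gene, whose loss was induced with 800 nM 4-hydroxytamoxifen. 16 libraries covered labelled and preexisting (unlabelled) RNA after 200 µM 4sU for 10 or 15 minutes, from 2 cultures called wild type (WT) and 2 called Dicer depleted. The labels give 8 days of treatment for both genotypes and name the conditional line as the source of both. Whether WT cells received 4-hydroxytamoxifen is not clear from the labels. The 800 nM dose was recorded for the treated small RNA samples, and no dose for the 4sU samples. The labels number the cultures as biological replicates without saying whether these are separate clones, so p-values measure only the spread between these samples. Small RNA libraries from the same line, 3 for day 0 (before 4-hydroxytamoxifen) and 3 for day 8 of treatment, were used for microRNA levels.

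A microRNA starts as a hairpin in a longer transcript. The nuclease Drosha and its RNA-binding partner Dgcr8 release the hairpin in the nucleus, exportin 5 (Xpo5) carries it to the cytoplasm, and Dicer1 with its partner Tarbp2 cuts it to the mature duplex. An Argonaute then holds the mature strand, finds mRNAs that pair with its seed, and recruits a TNRC6 protein, which brings in the deadenylase and decapping enzymes that shorten the life of the mRNA.

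Depth was not given for the 4sU libraries, so no counting interval can be attached to their values, which are in TPM (a length-scaled share of all transcripts, exonic and intronic signal scaled together). All 8 markers of pluripotent cells were present, summing to 1190 to 1700 TPM in WT and 946 to 1540 TPM in depleted libraries. The 7 primitive endoderm markers summed to 2.24 to 8.66 TPM in WT and 3.40 to 19.0 TPM in depleted libraries, with 4 to 6 of the 7 under 1 TPM in every library of a group. The 7 fibroblast markers summed to 1.94 to 6.76 TPM over both genotypes, and Foxa2, Postn and Col3a1 were listed at 0 in all 4 libraries of at least 1 group. Intronic sequence made up 15.5 to 18.4% of labelled libraries in WT and 18.5 to 23.3% in depleted cells. WT culture 1 had the lowest exonic value for 6 of the 10 genes in its 10 minute preexisting library and for 8 of 10 in its 15 minute labelled library; its part in the differences was not tested beyond leaving out cultures and labelling times.

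The targeted gene was checked before any other. In preexisting RNA, Dicer1 stood at 13.4 and 17.6 TPM (10 and 15 minutes) in WT culture 1, at 17.9 and 17.2 TPM in WT culture 2, at 1.203 and 3.23 TPM in depleted culture 1 and at 3.37 and 2.95 TPM in depleted culture 2. The genotypes did not overlap. On the log2(TPM + 1) scale Dicer1 fell by 2.29 (SE 0.25, adjusted p = 0.0347, limma with Benjamini-Hochberg adjustment over 21821 genes), and its exonic signal also lay lower in all 4 depleted labelled libraries, at 2.35 to 3.52 TPM against 7.34 to 9.65 TPM. The call in preexisting RNA was lost when any 1 of the 4 cultures was left out. Intronic Dicer1 signal in labelled RNA was not lower, with 2.99 ± 0.423 TPM in depleted and 2.29 ± 0.0509 TPM in WT cells (SD, n = 2 cultures).

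In WT preexisting RNA, Drosha had the highest summed exonic level of the 10 genes, at 90.2 ± 2.496 TPM (SD, n = 2 cultures). Next came Tnrc6c at 40.7 ± 5.80 TPM, Dgcr8 at 29.5 ± 4.61 TPM and Ago2 at 21.4 ± 5.73 TPM. Dgcr8 and Ago2 did not differ beyond their spread. Ago1 (16.2 ± 3.29 TPM), Xpo5 (13.4 ± 1.60 TPM) and Tarbp2 (13.2 ± 6.47 TPM) formed a middle group whose members lay within each other's spread. Tnrc6a (9.60 ± 1.49 TPM), Ago3 (6.84 ± 1.77 TPM) and Tnrc6b (5.98 ± 1.34 TPM) were lowest, and Ago3 and Tnrc6b lay within each other's spread. On mm10, Ago3 (chr4:126331704-126429556), Ago1 (chr4:126435012-126468583) and Ago4 (chr4:126489541-126533472) are neighbours on the minus strand, and Ago2 (chr15:73095844-73184935, minus) lies apart. Tnrc6a is at chr7:123123885-123195296, Tnrc6b at chr15:80711313-80941085 and Tnrc6c at chr11:117654289-117763439, all on the plus strand. Drosha (chr15:12824815-12935291), Xpo5 (chr17:46202782-46243598) and Tarbp2 (chr15:102518192-102523676) are on the plus strand and Dgcr8 (chr16:18253948-18289246) on the minus strand. Ago4, which is not among the 10, was at or below 0.323 TPM in every preexisting library and was not tested in exonic RNA.

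That order depended on which transcripts of a gene were summed. Transcripts annotated as protein coding carried 20.6% of the WT preexisting signal of Dgcr8, 40.9% for Drosha, 48.5% for Tarbp2, 59.7% for Ago1 and 68.4% for Tnrc6c, while Ago2, Tnrc6a, Tnrc6b and Xpo5 each had 1 entry and it was coding. Counting coding transcripts alone, Drosha stood at 36.8 TPM, Tnrc6c at 27.8 TPM, Ago2 at 21.4 TPM, and Dgcr8 stood at 6.08 TPM, beside Tnrc6b and Tarbp2 (6.43 TPM). Dgcr8 shares 825 exonic bases with Trmt2a on the opposite strand and, on its own strand, 327 with Gm49776, 88 with Gm24572 and 79 with the microRNA gene Mir1306, and Ago2 shares 219 bases with Chrac1 on the opposite strand. Whether the counting used strand is not given in the sources used here, so the levels of Dgcr8 and Ago2 are uncertain by the reads of those neighbours; overlaps on the same strand stay unresolved with either setting. Tnrc6a shares 143 exonic bases with the predicted gene Gm45846 and Tnrc6b 82 with the microRNA gene Mir5113, on their own strands.

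Among the Argonautes, Ago1 separated the genotypes in preexisting RNA. It stood at 9.04 and 18.8 TPM in WT culture 1, 19.0 and 18.1 TPM in WT culture 2, 57.7 and 46.8 TPM in depleted culture 1 and 39.6 and 29.2 TPM in depleted culture 2. All 4 depleted libraries lay above all 4 WT libraries, with means of 43.3 ± 12.6 and 16.2 ± 3.29 TPM (SD, n = 2 cultures), 2.67-fold apart. The difference on the log2(TPM + 1) scale was 1.38 (95% interval 0.72 to 2.03), which did not pass after adjustment over all genes (limma, adjusted p = 0.083). In such bulk RNA, a change in the make-up of the culture and a change in RNA per cell cannot be told apart. Ago2, the Argonaute able to cut a fully paired target, was at 13.8, 20.9, 27.7 and 23.2 TPM in WT and 27.0, 24.5, 25.9 and 28.1 TPM in depleted libraries. These values overlapped, and the interval of the log2 difference ran from -0.31 to 0.96. Ago3 also overlapped, at 5.41 to 9.16 TPM in WT and 5.26 to 10.3 TPM in depleted libraries, with an interval of -0.51 to 0.71.

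In the TNRC6 family, Tnrc6a and Tnrc6b separated the genotypes and Tnrc6c did not. Preexisting Tnrc6a was 6.90 and 10.2 TPM in WT culture 1, 12.4 and 8.96 TPM in WT culture 2, 23.8 and 20.02 TPM in depleted culture 1 and 26.4 and 23.3 TPM in depleted culture 2. The means were 9.60 ± 1.49 and 23.4 ± 2.08 TPM (SD, n = 2 cultures), 2.43-fold apart, and the log2 difference was 1.22 (95% interval 0.73 to 1.71, limma adjusted p = 0.0563). Preexisting Tnrc6b was 4.12, 5.94, 6.99 and 6.86 TPM in WT libraries and 11.5, 10.9, 15.4 and 14.8 TPM in depleted libraries. Its means were 2.20-fold apart, and the log2 difference was 1.03 (95% interval 0.43 to 1.63, limma adjusted p = 0.12). Tnrc6c, the most abundant of the 3, was 37.6, 52.0, 33.9 and 39.3 TPM in WT and 38.4, 65.1, 38.7 and 44.7 TPM in depleted libraries, with a log2 difference of 0.18 and an interval from -0.28 to 0.64. That interval ended below those of Ago1 and Tnrc6a and overlapped that of Tnrc6b; whether Tnrc6c differed from its relatives was not tested.

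None of the 4 processing genes separated the genotypes in preexisting exonic RNA. Drosha was at 73.2, 104, 95.7 and 88.2 TPM in WT and 109, 108, 85.9 and 82.3 TPM in depleted preexisting RNA, with a log2 difference of 0.09 (95% interval -0.33 to 0.52). Dgcr8 was at 26.1 to 33.5 TPM in WT and 28.0 to 42.0 TPM in depleted libraries (log2 difference 0.22, interval -0.22 to 0.65). Xpo5 was at 10.2 to 16.1 TPM and 11.8 to 18.1 TPM (log2 difference 0.08, interval -0.39 to 0.55). Tarbp2 had the largest standard error of the 10 genes, 0.47. It was at 18.9 and 16.7 TPM in WT culture 1, 6.55 and 10.8 TPM in WT culture 2, 4.599 and 15.9 TPM in depleted culture 1 and 2.31 and 3.39 TPM in depleted culture 2. Its log2 difference of -1.13 had an interval from -2.21 to -0.05 and did not pass (limma adjusted p = 0.264); the depleted library at 15.9 TPM lay within the WT range. Leaving out 1 culture moved the value to -0.63 (WT culture 1), -1.63 (WT culture 2), -1.80 (depleted culture 1) or -0.45 (depleted culture 2).

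**Figure D1:**
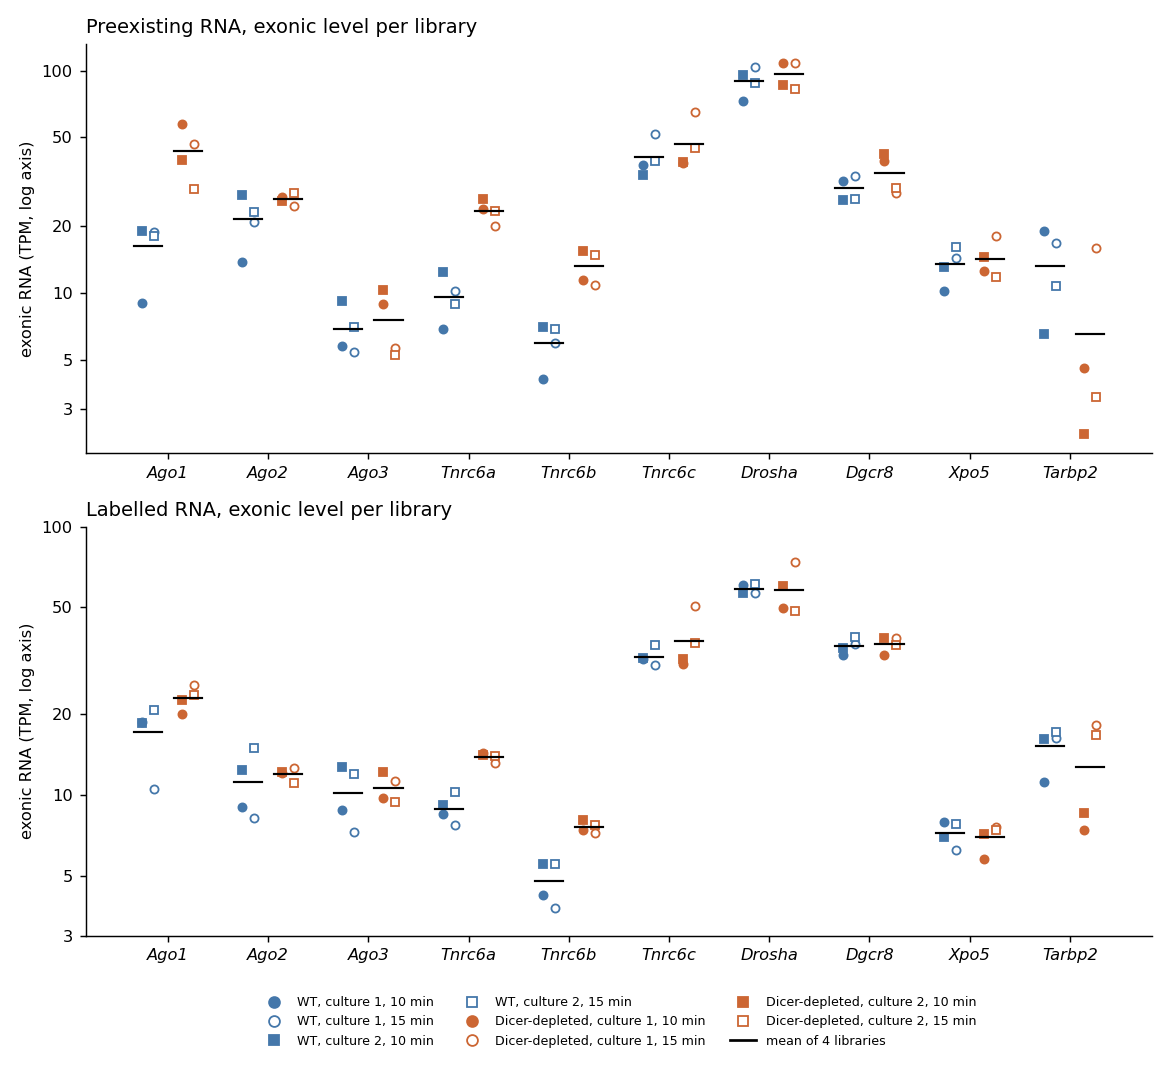
Exonic level of the 10 genes in each library (TPM, log axis) in preexisting RNA (top) and labelled RNA (bottom); circles and squares are cultures 1 and 2, filled and open symbols 10 and 15 minutes of labelling, black bars the mean of 4 libraries. In preexisting RNA Ago1, Tnrc6a and Tnrc6b are higher in all 4 depleted libraries than in all 4 WT libraries, and in labelled RNA Tnrc6a and Tnrc6b are.

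After adjustment over all genes, 0 of the 10 passed in preexisting RNA with limma, where 0.646% of 21821 genes passed; 4 of the 10 had an unadjusted p under 0.05, as did 17.8% of all genes. 3 of the 10 were higher in all 4 depleted libraries, against 7.03% of all genes. The median log2 difference over the 10 genes was 0.20, against 0.03 over all genes tested. Which genes passed rested on the set tested and on the cultures. With coding transcripts only, Ago1 (adjusted p = 0.0354) and Tnrc6a (adjusted p = 0.0221) passed; with replicate number as a block, Tnrc6a alone of the 10 did (adjusted p = 0.0389); leaving out any 1 of the 4 cultures left no gene of the table past the threshold. The log2 difference stayed between 0.97 and 1.78 for Ago1, 1.07 and 1.37 for Tnrc6a and 0.82 and 1.23 for Tnrc6b over the 14 alternatives run. Their adjusted p ranged from 0.0354 to 0.5, 0.0221 to 0.44 and 0.0602 to 0.503 over these.

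Labelled RNA shows what the cells had made within minutes. Tnrc6a was at 8.53, 7.72, 9.15 and 10.3 TPM in WT and 14.4, 13.2, 14.2 and 13.9 TPM in depleted labelled libraries. Tnrc6b was at 4.26, 3.82, 5.53 and 5.56 TPM in WT and 7.44, 7.25, 8.09 and 7.77 TPM in depleted libraries. Both genes were higher in all 4 depleted libraries, as were 10.9% of all genes. Their log2 differences were each 0.59, with intervals from 0.11 to 1.08 for Tnrc6a and from -0.01 to 1.19 for Tnrc6b, and neither passed (limma adjusted p = 0.296 and 0.379). Ago1 overlapped between the genotypes in labelled RNA, at 18.8, 10.6, 18.6 and 20.8 TPM in WT and 20.1, 25.7, 22.7 and 23.6 TPM in depleted libraries, with a log2 difference of 0.44 (interval -0.22 to 1.09). Of the 10 genes 0 passed in this fraction, where 0.128% of all genes did, and 1 had an unadjusted p under 0.05, as did 13.6% of all genes.

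Intronic signal in labelled RNA comes mostly from transcripts not yet spliced. Here Tnrc6b was at 2.51, 1.91, 2.91 and 2.09 TPM in WT and 4.06, 3.68, 4.16 and 2.95 TPM in depleted libraries. Tnrc6a was at 4.61, 3.84, 4.92 and 3.85 TPM in WT and 6.08, 6.66, 7.04 and 5.03 TPM in depleted libraries. Ago1 was at 8.77, 6.02, 10.5 and 11.5 TPM in WT and 14.9, 12.6, 15.1 and 11.6 TPM in depleted libraries. All 3 were higher in every depleted library, but so were 25.7% of the 15787 genes with tested introns, and the median intronic gene was itself 0.29 higher on the log2(TPM + 0.5) scale. The differences of Ago1, Tnrc6b and Tnrc6a were 0.56, 0.56 and 0.48, and centring each profile on its median gene left 0.26, 0.26 and 0.17. None of the 10 passed (limma adjusted p = 0.0849 for Tnrc6b), where 1.18% of intronic genes did, and 2 of the 10 had an unadjusted p under 0.05, as did 29% of intronic genes. Intronic signal in preexisting RNA also lay higher, by 0.24 in the median gene. Dgcr8 was higher there in all 4 depleted libraries, at 17.71 to 24.9 TPM against 12.0 to 17.66 TPM, as were 20% of genes, and Drosha at 7.71 to 15.2 TPM overlapped with 6.58 to 9.36 TPM in WT. Their differences were 0.46 and 0.45, and 0 of the 10 passed, where 0.019% of genes did (limma; 1 of the 10 had an unadjusted p under 0.05, as did 23% of genes).

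**Figure D2:**
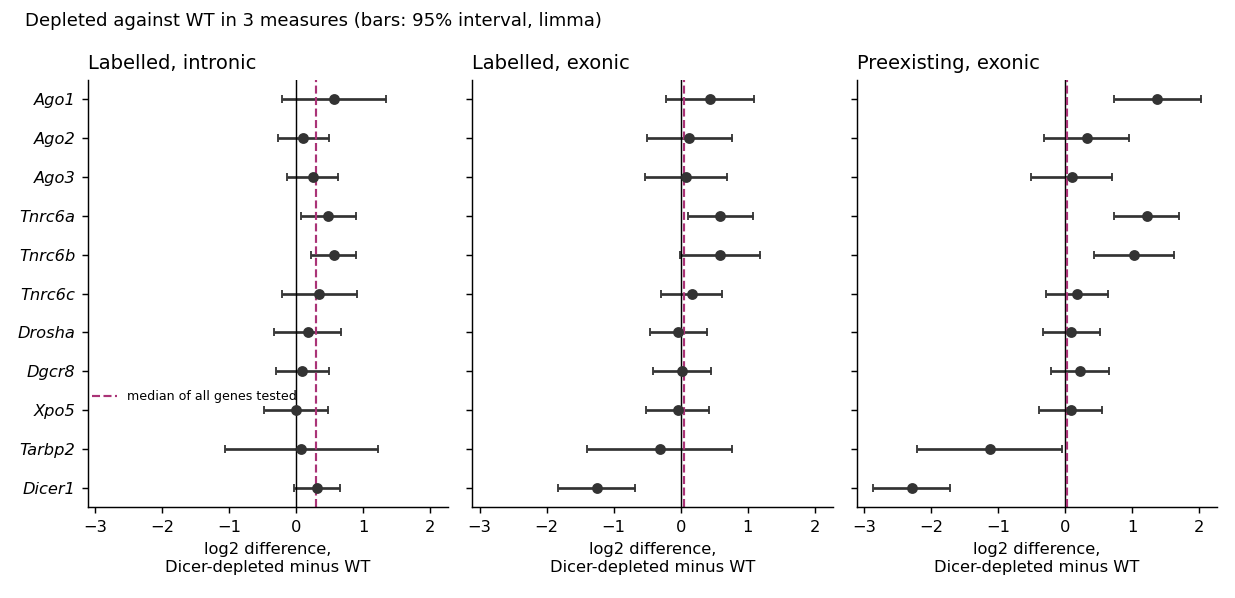
Log2 difference of Dicer-depleted minus WT cells for the 10 genes and Dicer1 in labelled intronic, labelled exonic and preexisting exonic RNA; bars are 95% intervals from limma and the dashed line is the median of all genes tested. For Ago1, Tnrc6a and Tnrc6b the point in preexisting exonic RNA lies at 1.38, 1.22 and 1.03, to the right of the points at 0.44, 0.59 and 0.59 in labelled exonic RNA.

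The ratio of preexisting to labelled RNA follows how long an RNA lasts relative to other RNAs, since each fraction is scaled to its own total. In WT cells Ago2 (log2 ratio 0.87, adjusted p = 0.0128), Xpo5 (0.79, adjusted p = 0.0243) and Drosha (0.60, adjusted p = 0.0238) were higher in preexisting than in labelled RNA by limma, in both cultures. These 3 of 10 compare with 9.78% of all genes called higher. In either direction 38.5% of all genes were called, 2134 higher and 6263 lower, and the median over all genes was -0.24. Centred on the median gene, 6121 of 9763 called genes were higher, 5 of the 10 passed, with Tnrc6c (0.78) and Tnrc6b (0.75) added, and Ago1 moved from -0.09 to 0.40. Leaving out either WT culture left 0 of the 10 and 0 of all genes past the threshold, as did testing with no filter on low values. Ago3 was at -0.51 (adjusted p = 0.0767), and Tnrc6a lay near 0, at 0.08. Cultures 1 and 2 were at 0.90 and 0.85 for Ago2 and at -0.45 and -0.56 for Ago3. The sign for Ago3 depended on the transcripts summed: coding transcripts, which carried 52.1% of its labelled and 83.5% of its preexisting signal, gave 0.12. Intronic signal in WT labelled RNA was 0.171 ± 0.0409 of the exonic level for Ago2 and 0.936 ± 0.228 for Ago3 (SD, n = 2 cultures). In preexisting RNA this share was 0.00717 ± 0.00367 for Ago2 and 0.445 ± 0.0828 for Ago3. Dgcr8 held the most intronic signal relative to exonic signal of the 10 genes in labelled RNA, at a ratio of 1.55 ± 0.0245. Tnrc6a, Tnrc6b and Tnrc6c were at 0.486 ± 0.0483, 0.499 ± 0.0689 and 0.639 ± 0.0119 in WT labelled RNA, and at 0.446 ± 0.0234, 0.487 ± 0.0559 and 0.716 ± 0.0662 in depleted cells.

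In depleted cells the preexisting to labelled ratio of Ago1 was 1.16 and 0.54 in cultures 1 and 2, against -0.10 and -0.08 in WT. For Tnrc6a it was 0.63 and 0.78 against 0.05 and 0.11, and for Tnrc6b 0.54 and 0.85 against 0.24 and 0.28. For Ago2 it was 1.00 and 1.15 against 0.90 and 0.85. Both depleted cultures lay above both WT cultures for these 4 of the 10 genes, as they did for 14.7% of all genes. The difference between genotypes was 0.94 for Ago1 (95% interval 0.22 to 1.66, unadjusted p = 0.0196), 0.63 for Tnrc6a (0.01 to 1.24, unadjusted p = 0.0474) and 0.44 for Tnrc6b (-0.25 to 1.12), and in limma's fit across all genes the adjusted p was 0.997 for each. None of the 10 passed, and 0% of all genes did, while 4.31% had an unadjusted p under 0.05. The value for Ago1 rested on labelling time: it was 1.60 from the 10 minute libraries and 0.28 from those of 15 minutes. For Tnrc6a the values at 10 and 15 minutes were 0.71 and 0.54. The cultures of the other 6 genes overlapped between genotypes. Those of Tarbp2 spread most, ranging from -1.78 to -0.39 in depleted and from -0.91 to 0.37 in WT cells.

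**Figure D3:**
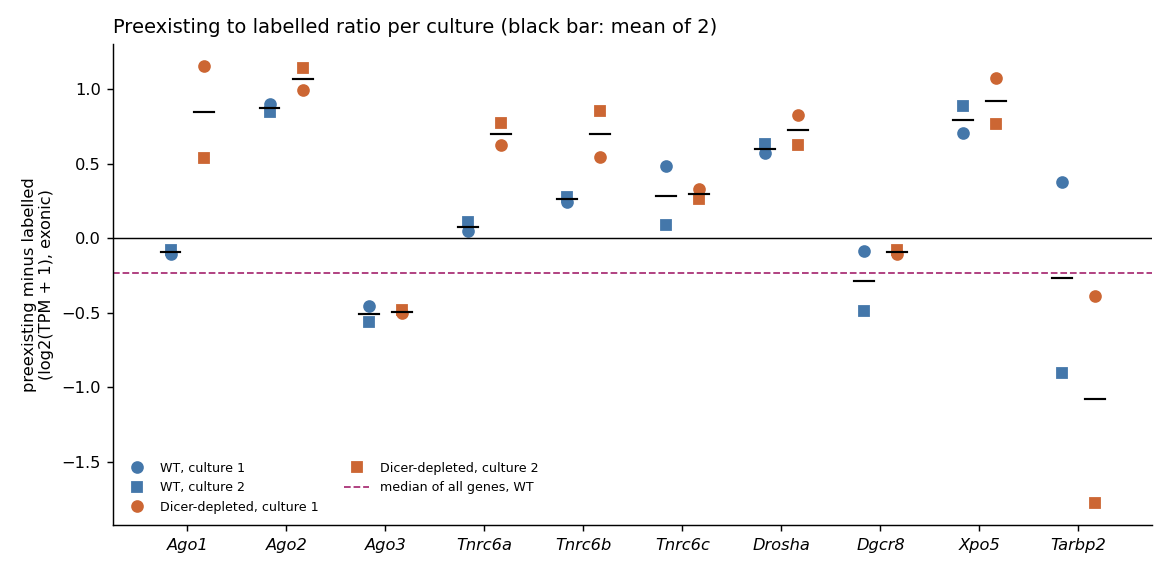
Preexisting minus labelled exonic level (log2(TPM + 1)) of the 10 genes in each culture; circles and squares are cultures 1 and 2, black bars the mean of 2 cultures and the dashed line the median of all genes in WT. Both depleted cultures lie above both WT cultures for Ago1, Ago2, Tnrc6a and Tnrc6b, as for 14.7% of all genes, while Ago3 lies between -0.56 and -0.45 in all 4.

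Summed over their listed members, the microRNA families whose sites were sought in these mRNAs had far fewer reads at day 8. Reads were scaled to all small RNA reads of a library (RPM). The miR-30 family had 4289 ± 597 RPM at day 0 and 165 ± 52.0 RPM at day 8 (SD, n = 3), or 3.84% of the day 0 level, the miR-148 family kept 2.35%, the miR-130 family 3.05% and the miR-19 family 2.65%. The miR-290 family, abundant in embryonic stem cells, kept 2.16% of 24370 RPM. The miR-19 and miR-26 families were lower at day 0, at 99.7 and 212 RPM. Some members near 0 RPM at day 0 did not fall. In the day 0 libraries miR-16 was at 3.00, 3.68 and 1.75 RPM, and at day 8 at 17.3, 2.00 and 7.99 RPM. Likewise miR-30c was at 0.0833, 0 and 0 RPM at day 0 and at 4.38, 0.0742 and 2.49 RPM at day 8. For each family all 3 day 8 libraries lay below all 3 day 0 libraries, and the exact two-sided permutation p was 0.1, also after adjustment over 12 families, which is the smallest that 3 against 3 libraries can give. Day 8 libraries held 0.885 to 1.48% microRNA reads against 15.8 to 21.3% at day 0. A choice of the mature sequences with sites in the TNRC6 genes is shown, from RefSeq on the GRCm38.p6 assembly. Families such as miR-290, miR-17 and miR-15/16, which also had sites there, are left out. Sequences run 5′ to 3′ with the seed, bases 2 to 8, in capitals.
miR-30e-5p: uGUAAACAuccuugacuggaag
miR-30a-5p: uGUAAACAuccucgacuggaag
miR-26b-5p: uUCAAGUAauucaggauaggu
miR-19a-3p: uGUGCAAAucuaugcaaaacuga
miR-130a-3p: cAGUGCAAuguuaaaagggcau
miR-148a-3p: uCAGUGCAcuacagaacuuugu
The first 2 share their seed. The seeds of miR-19a, miR-130a and miR-148a are the same letters shifted by 1 base, so that sites for all 3 can overlap in 1 stretch of mRNA.

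Sites were sought as exact matches to the complement of seed bases 2 to 8 in the 3′ UTR of 1 coding transcript per gene (GENCODE M21, mm10), on the mRNA strand. This was the coding transcript of highest mean signal, and others were not searched. It carried 16.4% of the WT preexisting signal for Tarbp2, 20.6% for Dgcr8 and 22.1% for Drosha. The share was 24.9% for Tnrc6c, 29.6% for Ago3 and 32.3% for Ago1. All 3 TNRC6 UTRs held the 9-base stretch TTTGCACTG, in which the sites of miR-19 (TTTGCAC), miR-130 (TTGCACT) and miR-148 (TGCACTG) overlap. It occurred in 148 of 11059 UTRs, 1.34%, and in none of the other 7 genes. Among UTRs within 10% of the same length it was in 1.96% for Tnrc6a, 2.55% for Tnrc6c and 1 of 7 UTRs for Tnrc6b, the last being Tnrc6b itself. It is shown in capitals with 10 bases on either side, because all 3 relatives share it.
Tnrc6a, chr7:123193314-123193342, + strand: agcttttaccTTTGCACTGagtgatgttc
Tnrc6b, chr15:80929878-80929906, + strand: tttaactttgTTTGCACTGggtgtgtttc
Tnrc6c, chr11:117761786-117761814, + strand: tgcttctaacTTTGCACTGaggtgtctct
The identical run was 12 bases between Tnrc6a and Tnrc6c and 9 bases between Tnrc6a and Tnrc6b. A miR-26 site was also present in all 3, with a run of 15 identical bases between Tnrc6a and Tnrc6b.
Tnrc6a, chr7:123193090-123193118, + strand: atcagtttgaaTACTTGAatcatgcaggc
Tnrc6b, chr15:80929703-80929731, + strand: cactcttgaaaTACTTGAatcatgaacgc
Tnrc6c, chr11:117761422-117761450, + strand: aaacatgcaaaTACTTGAacccagcaggc
The miR-26 site TACTTGA was in 8.97% of all UTRs, and in 16.7% of the 562 UTRs near the length of that of Tnrc6a.

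Sites for miR-30 (TGTTTAC) set Tnrc6a apart in number. Its UTR of 2345 bases held 4, and of the 562 UTRs within 10% of that length it was the only one with as many, while 27.9% of them had at least 1. Tnrc6b had 3 in a UTR of 11609 bases and Tnrc6c 2 in a UTR of 2588 bases, a number reached by 5.88% of the 510 UTRs of like length. Over the 10 genes miR-30 sites came to 0.332 per kb against 0.13 per kb over all UTRs. Higher density was not particular to miR-30: miR-130 had 0.249 against 0.088, miR-19 0.228 against 0.104 and miR-148 0.228 against 0.113. Sites of miR-130, miR-19 and miR-148 overlap in part, so their densities are not separate counts. With other letters, miR-182 had 0.145 against 0.0954 and miR-15/16 0.269 against 0.214. Only miR-25/92 was less dense in the 10 genes, at 0.0415 against 0.051 per kb. The 4 sites of Tnrc6a and the miR-30 site of Tnrc6c with the longest match to one of them, an identical run of 14 bases, are shown with the site in capitals.
Tnrc6a, chr7:123193374-123193402, + strand: tccagtgtagaTGTTTACtcaagggtgtt
Tnrc6a, chr7:123193662-123193690, + strand: gtgaaccttctTGTTTACagatttttttg
Tnrc6a, chr7:123193701-123193729, + strand: gagaaaaaaaaTGTTTACtcttccatcat
Tnrc6a, chr7:123194461-123194489, + strand: tggcttttaacTGTTTACaataggatgtg
Tnrc6c, chr11:117761876-117761904, + strand: tcatgtgtaaaTGTTTACtcaaggactct
Tnrc6c and Tnrc6a held sites of the same 7 families of 12 (miR-19, miR-26, miR-30, miR-130, miR-148, miR-17 and miR-290). Their numbers differed for miR-30 and their letters for miR-290. Any relation of these sites to RNA levels was not tested.

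The UTR of Ago1 is 4491 bases long and held 3 sites for miR-130, 2 for miR-148 and 1 each for miR-19 and miR-30. As many miR-130 sites were in 0.935% of the 214 UTRs of like length, which is 2 UTRs with Ago1 included. This count and that of miR-30 in Tnrc6a were picked from 10 genes and 12 families, without a test. 1 of the miR-130 sites of Ago1 lies in a stretch that also holds the letters of sites for miR-19, miR-291b and miR-17. It is shown here with the miR-130 site in capitals.
Ago1, chr4:126438521-126438549, - strand: tccattgacatTTGCACTttcagacgtga
The site for the main seed of the miR-290 family, AGCACTT, was absent from the UTRs of Ago1, Ago2 and Tnrc6a and present in Ago3 (3), Tnrc6b (2) and Tnrc6c (1). The related TGCACTT, which only miR-291b of that family matches, was in Ago1 (2), Ago2 (2), Ago3 (4), Tnrc6a (1) and Tnrc6b (1). Ago2 and Ago3 had sites of 10 and 11 of the 12 families, in UTRs of 11064 and 12742 bases. Of the 11 UTRs of a length like that of Ago2, 9 held the miR-30 site and 5 the miR-130 site. As many as its 3 miR-30 sites were in 3 of these UTRs. As many as its 3 let-7 or 2 miR-148 sites were in that of Ago2 alone. Only 3 UTRs, with Ago3 included, had a length like that of Ago3. Whether length accounts for the number of families was not tested. At the other end, the UTR of Drosha has 169 bases and no site of any family, Xpo5 (1327 bases) had 1 site, for miR-15/16, Dgcr8 (1574 bases) had 1 each for miR-19 and miR-148, and Tarbp2 (334 bases) 1 each for miR-15/16 and let-7. The let-7 site was in 3.09% of the 518 UTRs of a length like that of Tarbp2. The median UTR has 778 bases.

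**Figure D4:**
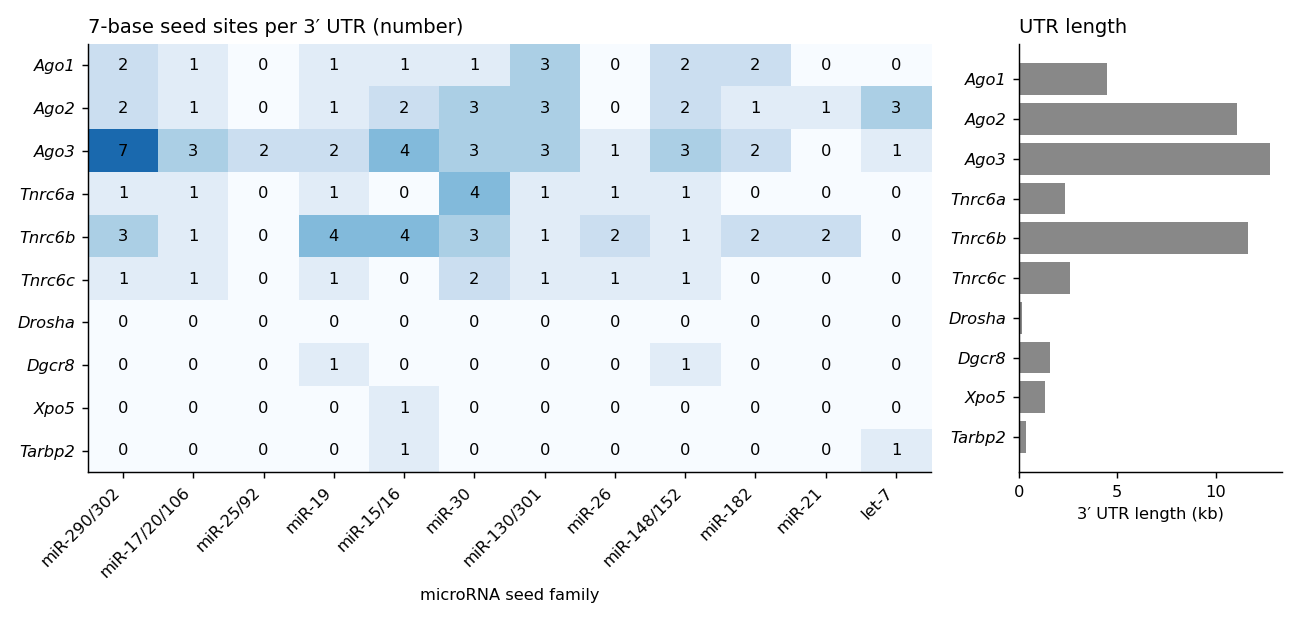
Number of 7-base seed sites of 12 microRNA families in the 3′ UTR of each of the 10 genes (left; darker means more) and the length of that UTR in kb (right). Drosha has no site and a UTR of 169 bases, Tnrc6a has 4 miR-30 sites in 2345 bases, and Ago3 has the longest UTR, 12742 bases, with sites of 11 families.

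Dgcr8 carries a hairpin of its own that Drosha and Dgcr8 can cut, giving miR-1306. Its 3p strand had 25, 24 and 14 reads in the day 0 libraries and 1, 0 and 0 at day 8, out of 11134202 to 12001225 and 11637367 to 14851928 reads. Its 5p strand had 20, 17 and 15 reads at day 0 and 1, 1 and 6 at day 8. The other microRNA of Dgcr8, miR-3618, had too few reads to compare, with 0, 0 and 2 at day 0 and 3, 2 and 1 at day 8 for the 5p strand and 1, 2 and 0 against 0, 2 and 1 for the 3p strand. Exonic Dgcr8 RNA did not differ beyond its spread in labelled RNA at day 8, at 33.4 to 38.9 TPM in WT and 33.3 to 38.4 TPM in depleted libraries.

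Partners of the 10 genes were read from 4 lists of other pathway genes. In preexisting RNA 0 of 12 microprocessor partners, 1 of 12 tested export and loading partners, 0 of 10 tested genes of microRNA stability, tailing and editing, and 0 of 21 TNRC6 effectors passed with limma; the 1 was Dicer1. At an unadjusted p under 0.05 these lists had 0, 4, 2 and 2 genes, with Dicer1 among the 4. Over all genes 17.8% were under 0.05 and 0.646% passed. The median log2 differences of the lists were 0.10, 0.07, 0.09 and -0.01, against 0.03 over all genes. Mov10, an RNA helicase that joins Argonaute complexes, was at 0.75 (limma, adjusted p = 0.157). The export and loading partners Snd1 (-0.69, adjusted p = 0.191) and Ran (-0.605, adjusted p = 0.28), also at an unadjusted p under 0.05, were lower. Cnot6l, a catalytic subunit of the CCR4-NOT deadenylase that TNRC6 proteins recruit, was at 0.87 (adjusted p = 0.133). Lin28a, which blocks let-7 maturation, was at -0.85 in preexisting and -0.94 in labelled RNA (adjusted p = 0.183 and 0.251). Adar, an RNA editing enzyme, was at -0.60. In labelled RNA and in the ratio between genotypes 0 genes of any list passed with limma, with 0, 2, 1 and 3 genes, and 0, 1, 0 and 0 genes, at an unadjusted p under 0.05. Over all genes that share was 13.6% in labelled RNA and 4.31% in the ratio.

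The ratio of preexisting to labelled RNA in WT set the effectors beside the TNRC6 genes that recruit them. As for the 10 genes, these calls were lost without either WT culture and with no filter on low values, and centring on the median gene raises every ratio. Of 21 TNRC6 effectors 10 were higher in preexisting RNA and 1, Cnot10, was lower (-0.66, adjusted p = 0.0346, limma), with a list median of 0.54 against -0.24 over all genes. Of all genes 9.78% were called higher. Among the 10 were Pabpc1, the poly(A)-binding protein (1.30, adjusted p = 0.00222), the CCR4-NOT subunits Cnot3 (1.01) and Cnot1 (0.88), and the helicase Ddx6 (0.96). Against the same share, 5 of 12 export and loading partners were higher in preexisting RNA: Mov10 (1.29), Dicer1 (0.93) and the chaperones Hsp90ab1 (0.96), Hspa8 (0.77) and Hsp90aa1 (0.47), which help load Argonautes. Of the 10 stability genes Lin28a (1.53) and Trim71 (1.12) passed, and of 12 microprocessor partners Khsrp (1.39). Tnrc6a, Tnrc6b and Tnrc6c themselves were at 0.08, 0.26 and 0.29 and did not pass. Centred on the median gene, Tnrc6b (0.75) and Tnrc6c (0.78) did pass. Whether the effectors differed from the TNRC6 genes was not tested.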

How the data were processed

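The 4sU RNA values were deposited as a signal named TPM whose columns sum to between 9999997 and 10000003. The authors set aside ribosomal reads with STAR 2.5.0, then mapped the others with STAR to introns and exons (mm10) and used RSEM for the levels, per the labels' protocols and the submitters' processing notes. Values were divided by 10 and summed per gene over GENCODE M21 entries. Labelling times were averaged, giving 8 profiles in 1 limma 3.58.1 fit (trend, 4 groups) on log2(TPM + 1) for exonic signal (mean of at least 1 TPM, 21821 genes) and log2(TPM + 0.5) for intronic signal (mean of at least 0.5 TPM, 15787 genes), with Benjamini-Hochberg adjustment and a threshold of 0.05, two-sided. The ratio used the difference of fractions per culture. The fit was tested on simulated data with independent noise in each profile, which cannot check how it treats fractions of the same culture. Small RNA values were deposited as raw read counts per microRNA, made by the authors with cutadapt 1.8, Bowtie2 and HTSeq, per the submitters' processing notes; RPM uses all reads of a library. The RSEM version and strand setting are not given in the sources used here. Named genes were the 10, Ago4, Dicer1, Snd1, Ran, and list genes that passed in a comparison or had its 2 smallest p-values. A choice of these is printed. The genes, lists and tests were chosen with earlier results of these data known. Alternatives changed the pseudocount, filter, scaling, labelling time, samples, transcripts and replicate block. R 4.3.3 and Python 3.11.15 were used.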

Additional observations from a re-analysis of the deposited data

Results flagged for a closer look

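In 6 of 80 groups of 4 libraries for the 10 genes, 1 library stood far from the other 3 (by Dixon's test at 95% on the gap to the nearest of the others); chance flags about 1 group in 20. Ago1 was at 9.04 TPM in preexisting RNA of WT culture 1 at 10 minutes, against 18.1 to 19.0 TPM in the others. Tarbp2 was at 15.9 TPM in preexisting RNA of depleted culture 1 at 15 minutes, against 2.31 to 4.599 TPM, and its intronic signal in the labelled library of the same culture and time was 18.2 TPM, against 8.23 to 9.90 TPM. Tarbp2 was also at 11.2 TPM in labelled RNA of WT culture 1 at 10 minutes, against 16.2 to 17.2 TPM. Intronic Drosha was at 38.2 TPM in labelled RNA of depleted culture 2 at 15 minutes, against 49.6 to 51.6 TPM, and intronic Tnrc6a was at 0.666 TPM in preexisting RNA of WT culture 2 at 10 minutes, against 0.387 to 0.423 TPM. Without WT culture 1 the log2 difference of Ago1 in preexisting RNA was 1.14.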

How the results depend on the processing

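With 2 cultures a genotype and unknown depth, small differences could not be resolved. Of 60 values of the 10 genes over 6 comparisons, 33 changed sign in at least 1 alternative; 0 of the 63 values of the other sign passed the threshold. In preexisting RNA these were Drosha (-0.0184), Dgcr8 (-0.044), Ago3 (-0.16) and Xpo5 (-0.05) with 15 minute libraries only, and leaving out a culture gave -0.089 to 0.27 for Drosha, -0.13 to 0.32 for Ago3 and -0.0381 to 0.20 for Xpo5. In the WT ratio, median centring gave 0.20 for Dgcr8, 0.22 for Tarbp2 and 0.40 for Ago1, 15 minute libraries 0.29 for Ago1, coding transcripts 0.12 for Ago3, rescaled exonic entries -0.11 for Tnrc6a, and left-out cultures -0.91 to 0.37 for Tarbp2. Scaled to microRNA reads, the miR-15/16, miR-182 and miR-21 families were at 0.76, 0.0339 and 0.45 at day 8 against day 0.

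Of the 10 genes, the number past the threshold in preexisting RNA was 1 with the filter at 5 TPM, 1 with the replicate block and 2 with coding transcripts. In the WT ratio it was 0 with no filter, 5 when centred, 0 with 10 minute libraries, 1 with 15 minute libraries and 0 to 3 with a culture left out. Over all genes, 141 in preexisting exonic RNA became 74 with no filter, 62 centred (39 of them higher, against 109 of 141), 267 with the replicate block, 1 at 10 minutes, 7 at 15 minutes, 0 with only the groups compared, 327 with coding transcripts and 0 with any culture left out. In labelled exonic RNA 28 became 0 with pseudocount 0.1, 257 with no filter, 0 at 5 TPM, 15 centred (9 higher, against 20 of 28), 0 with only the groups compared and 0 to 76 with a culture left out. The ratio between genotypes had 1 with pseudocount 0.1 in place of 0. In the WT ratio 8397 became 0 with no filter, 4199 at 5 TPM, 2522 and 5020 at 10 and 15 minutes, 1903 with coding transcripts and 0 to 9277 with a culture left out. In labelled intronic RNA 187 became 0 with pseudocount 0.1, 1114 with no filter, 56 at 2 TPM, 1 centred, 629 with the replicate block, 9 and 15 at 10 and 15 minutes, 0 with only the groups compared and 0 to 5 with a culture left out. In preexisting intronic RNA 3 became 864 with pseudocount 0.1, 91 with no filter, 205 at 2 TPM, 21 with the replicate block, 0 at 15 minutes, 0 with only the groups compared and 0 to 4 with a culture left out. The cause of these changes was not tested. The numbers pair samples only by name, with 2 pairs. Same-numbered cultures of both genotypes correlated at 0.219 in preexisting and 0.162 in labelled exonic RNA, and at 0.166 and 0.461 in intronic RNA. Labelled and preexisting RNA of a culture, which the fit of levels treated as independent, correlated at 0.397 in WT and 0.0512 in depleted cells (exonic). In intronic RNA these were 0.366 and 0.091. The replicate block changed the call of Tnrc6a in preexisting RNA and of no other of the 10 genes.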
